A study of Mus musculus with 8 samples.

Results

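The SLIT, ROBO, UNC5, netrin and FLRT genes encode secreted and membrane proteins that steer growing axons and vessel sprouts. Slit2, Slit3, Robo1, Robo4, Unc5a, Unc5b, Unc5c, Ntn4, Flrt2 and Flrt3 were examined here, and a peak of open chromatin was taken as belonging to a gene when the deposited table gave that gene's name for it, which HOMER sets by the nearest transcription start. The 10 genes held 67 of the 58522 listed peaks, and 66 of the 67 passed the filter on low counts. The remaining peak, 790.3 kb upstream of Slit2, had too few reads and was not tested.

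SLIT proteins are secreted ligands that bind ROBO receptors, and the contact usually repels the cell that carries the receptor. Netrins are laminin-related secreted proteins whose repulsive receptors are the UNC5 proteins. FLRT proteins are membrane proteins with leucine-rich repeats that can be shed and that bind UNC5 receptors and latrophilins, and so link the families. In endothelium, Robo4 and Unc5b are the members best known for restraining sprouting and leakage.

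The assay was ATAC-seq. Tn5 transposase cuts and tags open DNA, so that read counts rise where nucleosomes leave DNA exposed. The cells were liver sinusoidal endothelial cells (LSECs), selected from mouse liver with the endothelial surface protein CD146, and a selection of this kind also keeps endothelium of larger vessels. MafLSEC-KO mice carried Clec4g-iCre, a Cre transgene driven from the LSEC gene Clec4g, on a Maf fl/fl background, which deletes Maf in LSECs, and Maf encodes the transcription factor c-Maf. Controls were littermates without the transgene that carried Maf fl/fl or fl/wt, and all animals were 12 weeks old. Each group held 4 libraries. The labels name 3 mice, the methods describe pooling of livers for cell isolation, and neither says which animals went into which library, so p-values measure the spread between libraries only.

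Total counts over the listed peaks ranged from 5.37 to 13.36 M in controls and from 6.78 to 11.61 M in MafLSEC-KO. The Maf promoter peak checked the labels: in replicate order, 314, 558, 360 and 1088 of its reads came from the controls, against 125, 124, 131 and 98 from MafLSEC-KO. No library went against its label. All 12 endothelial markers had peaks, with a summed level of 1894 to 2793 CPM, the reads scaled to equal library size, in controls and 2281 to 2471 in MafLSEC-KO. Of the 12, 1 was higher and 2 were lower. Clec4g itself rose by 1.68 on the log2 scale, where a change at the locus and reads from the Clec4g-driven transgene cannot be told apart, and the sinusoidal genes Stab2 and Lyve1, of the scavenger receptor stabilin-2 and a hyaluronan receptor, fell by 0.65 and 0.72 (adjusted p = 0.00298 and 0.0395). The part of these changes in the results for the guidance genes was not tested. The summed levels of 3 other cell types overlapped between the groups, with 28.4 to 42.2 CPM in controls and 28.5 to 31.7 in MafLSEC-KO for 5 of 7 stellate cell markers, 104 to 120 and 97.8 to 116 for 5 of 6 Kupffer cell markers, and 112 to 129 and 115 to 131 for 4 of 6 hepatocyte markers. Lrat, Ngfr, Vsig4, Alb, Hnf4a and all 6 lymphocyte markers had no listed peak, and none of the 14 listed markers of these cell types passed the edgeR test (0 at an unadjusted p under 0.05). The summed level of 6 genes listed as large-vessel endothelial markers was 545 to 643 CPM in controls and 663 to 735 in MafLSEC-KO. Cd34 and Gja5 were higher, Rspo3 was lower, and Vwf, Efnb2 and Selp did not pass. The paper found Cd34 across the LSEC clusters of MafLSEC-KO and places Rspo3 in pericentral LSECs as well as central veins. Cd34 and Rspo3 therefore do not mark large vessels alone, and the part of this list was not tested either. In the paper's flow cytometry, isolated MafLSEC-KO cells were less often positive for the endothelial proteins LYVE1 or CD31 than control cells. They were more often positive for the myeloid protein CD11b. Whether this held for the ATAC-seq libraries is not given. In such bulk samples, fewer cells with open chromatin and less open chromatin per cell cannot be told apart. Control replicate 4, the deepest library, gave the lowest control value for 6 of the 10 gene sums and the highest for the other 4. Leaving it out changed the call of 1 of 40 named sums and peaks, the Slit2 sum, which is described with that gene. Tests of a peak against its gene were not among the 40.

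Sequences are printed from 5 peaks, those with the smallest p at Unc5a, Slit2, Slit3, Flrt2 and Flrt3. They were read from the plus strand of GRCm38, the assembly behind mm10, and span 300 bases, except that the Flrt2 sequence runs for 272 bases from the edge of the peak to the base before the annotated start. Capitals mark exact matches, on either strand, to any of 5 short motifs. The core of the MAF recognition element was searched as TGCTGA, the element of the AP-1 family as TGANTCA, the element of the ETS family as CCGGAA, that which the GATA family prefers as AGATAA, and that which the SOX family prefers as ACAATG.
Unc5a, 32.6 kb upstream, chr13:54916701-54917000: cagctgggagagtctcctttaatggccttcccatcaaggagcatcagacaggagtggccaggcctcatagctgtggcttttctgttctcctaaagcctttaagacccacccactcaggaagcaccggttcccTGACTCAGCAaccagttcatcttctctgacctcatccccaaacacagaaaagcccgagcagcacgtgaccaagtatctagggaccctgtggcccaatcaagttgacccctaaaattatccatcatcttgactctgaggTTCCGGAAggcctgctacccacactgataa
Slit2, 703.1 kb upstream, chr5:47279860-47280159: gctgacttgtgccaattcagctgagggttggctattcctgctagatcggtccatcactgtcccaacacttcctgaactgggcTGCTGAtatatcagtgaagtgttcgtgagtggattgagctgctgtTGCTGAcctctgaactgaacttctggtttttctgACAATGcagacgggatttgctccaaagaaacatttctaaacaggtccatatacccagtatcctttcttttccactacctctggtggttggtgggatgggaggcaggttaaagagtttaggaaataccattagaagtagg
Slit3, 143.3 kb upstream, chr11:34977986-34978285: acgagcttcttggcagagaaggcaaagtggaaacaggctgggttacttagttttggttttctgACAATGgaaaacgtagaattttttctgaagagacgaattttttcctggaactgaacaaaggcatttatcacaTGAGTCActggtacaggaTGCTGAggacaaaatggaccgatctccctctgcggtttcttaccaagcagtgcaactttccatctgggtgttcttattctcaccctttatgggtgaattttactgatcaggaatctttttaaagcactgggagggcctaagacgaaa
Flrt2, promoter, chr12:95691954-95692225: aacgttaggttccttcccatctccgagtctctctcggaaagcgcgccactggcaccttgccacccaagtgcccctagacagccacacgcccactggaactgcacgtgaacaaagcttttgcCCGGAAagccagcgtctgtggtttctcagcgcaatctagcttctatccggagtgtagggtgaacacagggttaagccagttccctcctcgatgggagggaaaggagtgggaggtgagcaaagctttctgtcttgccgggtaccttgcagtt
Flrt3, 916.0 kb upstream, chr2:141587307-141587606: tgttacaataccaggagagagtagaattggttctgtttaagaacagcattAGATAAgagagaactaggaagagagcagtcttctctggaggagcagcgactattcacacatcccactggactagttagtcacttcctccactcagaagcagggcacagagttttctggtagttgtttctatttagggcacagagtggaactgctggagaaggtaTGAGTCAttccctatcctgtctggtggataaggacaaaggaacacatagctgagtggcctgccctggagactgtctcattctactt
In the Unc5a window the capitals join an AP-1 match, TGACTCA, to the reverse complement of the MAF core, TCAGCA, which overlap by 3 bases. The Slit2 window holds 2 MAF cores and a SOX match, and the Slit3 window holds a SOX match, an AP-1 match and a MAF core. The Flrt2 sequence holds an ETS match, and the Flrt3 window holds a GATA and an AP-1 match. The central 300 bases of the same Flrt2 peak, used for the counts of motifs, also hold a GATA and a SOX match. The Unc5a window also holds ETS letters on both strands. The windows of the Robo1 peak at 58.5 kb and the Unc5b peak at 38.6 kb, which had the smallest p of those genes, held none of the 5 and are not printed. A MAF core stood in 7 of the 13 member peaks that fell and in 4 of the 11 that rose, where 40.6% of all peaks that fell, 20.8% of all that rose and 22.7% of all tested peaks held it. It also stood in 15 of the 42 member peaks that did not pass, against 21.6% of all such peaks. In all, 26 of the 66 tested member peaks held it. AP-1 letters stood in 4 of the 11 that rose and 2 of the 13 that fell, against 25.9% of all that rose, 12% of all that fell and 11.5% of all tested peaks. These matches describe the letters and are no evidence of binding.

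Peaks of the guidance genes moved in both directions without c-Maf. With edgeR's quasi-likelihood test and Benjamini-Hochberg adjustment over all tested peaks, at an adjusted p under 0.05, 11 of the 66 member peaks rose in MafLSEC-KO (16.7%, where 8.97% of all tested peaks rose) and 13 fell (19.7%, where 6.45% of all tested peaks fell). The 42 others did not pass. At 24 member peaks the 4 values of one group lay wholly apart from those of the other (36.4%, with 19.4% of all tested peaks), and 22 of the 24 were among the called peaks. The median log2 fold change was -0.12 over the member peaks and -0.00 over all tested peaks. Called peaks were found at 7 of the 10 genes. The share of all genes with a called peak was not taken, so this count has no background here. A gene with more peaks can more easily hold a called one. The members held up to 13 peaks, where the median over all listed genes was 2. Robo1 and Unc5a had called peaks only among those that fell, Slit3 and Flrt2 only among those that rose, Slit2, Unc5b and Flrt3 in both directions, and Ntn4, Robo4 and Unc5c had none.

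**Figure D1:**
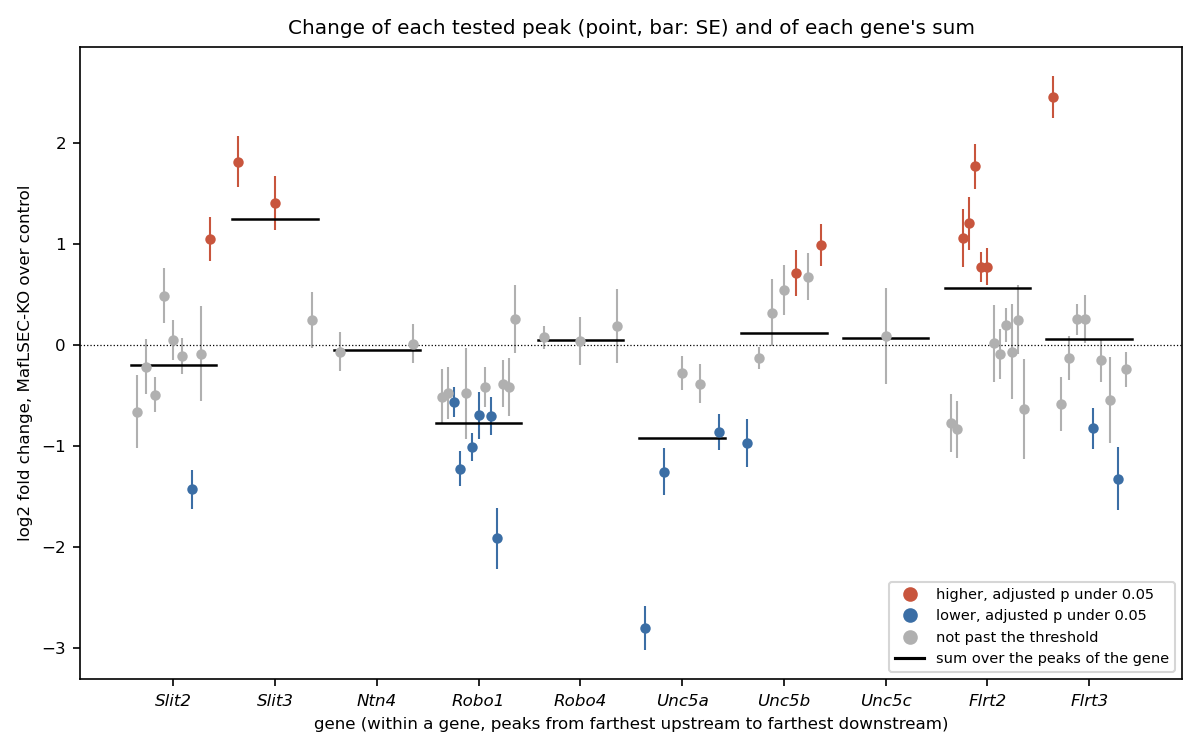
Log2 fold change of MafLSEC-KO over control (vertical axis) for the 66 tested peaks, grouped by gene and ordered from upstream to downstream within each gene. Points are peaks with their SE, red for higher, blue for lower and grey for peaks that did not pass, and black lines are the gene sums, showing 11 red and 13 blue points and peaks of opposite direction at Slit2, Unc5b and Flrt3.

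When the reads of all peaks of a gene were summed, 2 of the 10 sums rose (Slit3 and Flrt2, where 5.65% of all 17745 tested sums rose) and 2 fell (Robo1 and Unc5a, where 4.05% of all sums fell). The groups did not overlap for these 4 sums, as was the case for 16.2% of all sums. The median log2 fold change was 0.06 over the 10 sums and -0.02 over all sums. Sums depend on how many peaks a gene was given, which ran here from 1 for Unc5c to 13 for Robo1 and Flrt2.

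**Figure D2:**
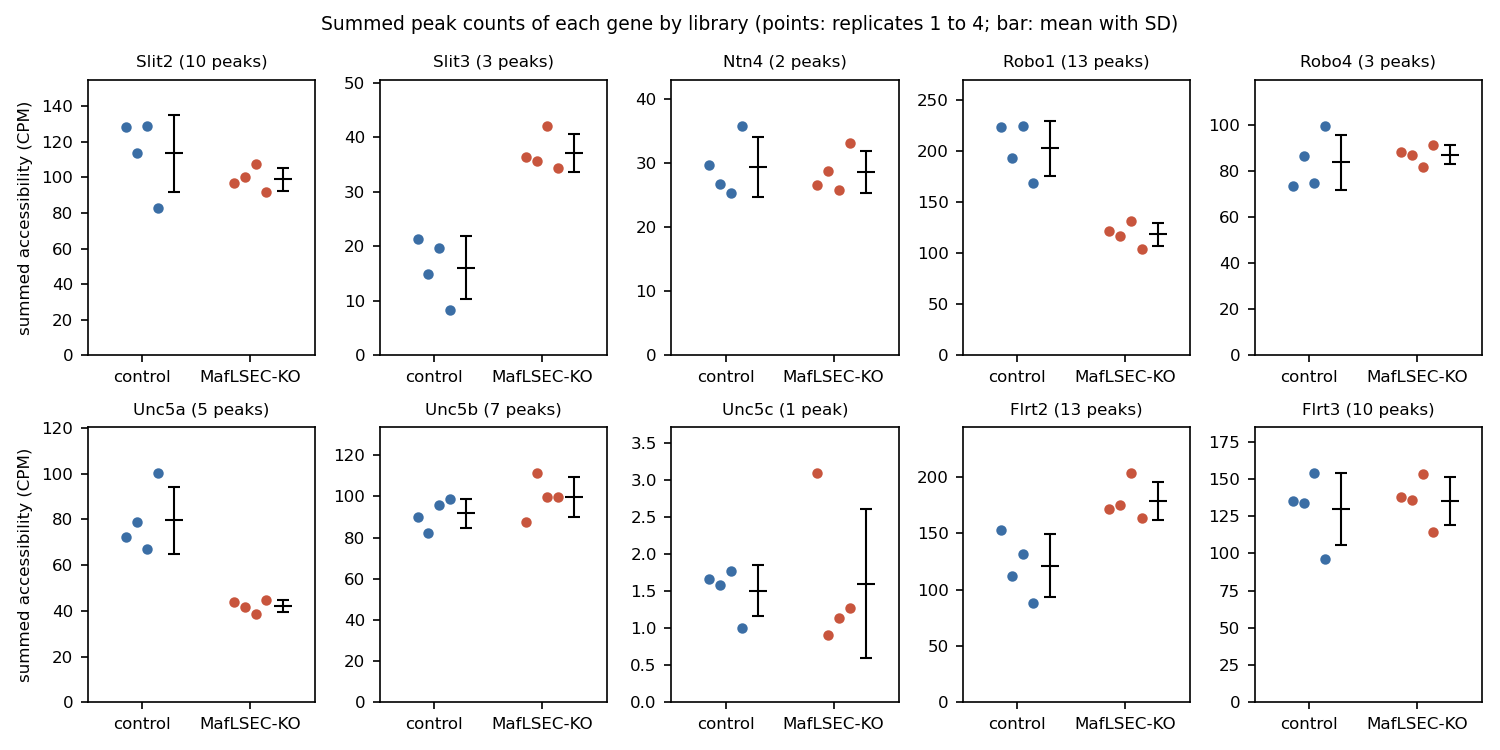
Summed accessibility of each gene in CPM (vertical axes, each starting at 0) in the 4 control and 4 MafLSEC-KO libraries. Points are libraries and the bars beside them are mean and SD (n = 4), showing groups that lie apart for Slit3, Robo1, Unc5a and Flrt2 and overlap for the other genes.

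A sum can hide peaks that move against each other, so each peak was also tested against its gene as a whole. This was edgeR's test of differential part usage, adjusted over 51839 peaks. It compares the log2 fold change of a peak with that of the whole gene, the peak itself included. Of the 65 member peaks in that test, 13 differed from their gene as a whole (20%, with 8.65% of all such peaks). They lay at Slit2, Robo1, Unc5a, Unc5b, Flrt2 and Flrt3. Deviations of same-numbered libraries correlated positively (r = 0.104 to 0.453), though pairs of different number reached 0.217. The replicate number was therefore also fitted as a block, as an alternative. With the block, 22 of the 65 differed from their gene as a whole, where 16% of all such peaks did.

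Among the ligands, the summed accessibility of Slit3 rose. Slit3 encodes a secreted SLIT ligand and spans 587.3 kb (chr11:35121224-35708507, plus strand). Its 3 peaks held 115, 122, 110 and 109 (controls) and 247, 394, 408 and 402 (MafLSEC-KO) reads. As CPM the sum was 21.2, 14.9, 19.6 and 8.38 in control replicates 1 to 4, against 36.4, 35.6, 42.1 and 34.3 in MafLSEC-KO replicates 1 to 4. Every MafLSEC-KO library lay above every control, and control replicate 4 was the lowest. The sum was 2.38-fold higher (log2 fold change 1.25 ± 0.23 SE, adjusted p = 0.00344).

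The rise of Slit3 came with both of its intergenic upstream peaks, which overlap no gene. The peak 143.3 kb upstream, whose centre is printed above, measured 7.45, 3.86, 5.59 and 3.09 CPM in controls and 18.3, 16.6, 20.5 and 12.2 in MafLSEC-KO, a 3.52-fold rise (log2 1.82 ± 0.25 SE, adjusted p = 6.66e-05). At 114.0 kb upstream the values were 8.17, 5.60, 7.16 and 2.48 CPM in controls and 12.2, 15.1, 14.8 and 16.6 in MafLSEC-KO (log2 1.40 ± 0.27 SE, adjusted p = 0.00126). Neither peak had overlapping groups. The peak in intron 4 of 35 had a log2 difference of 0.25, with a 95% interval of -0.34 to 0.83, and did not pass, and no listed peak lay at the Slit3 start. Under the replicate block this intronic peak differed from Slit3 as a whole (adjusted p = 0.00398), which it did not without the block (adjusted p = 0.052). Without the block it also differed when control replicate 1 or 4 was left out (adjusted p = 0.0279 and 0.00857). It did not when control replicate 2 or 3 was left out (adjusted p = 0.197 and 0.0923).

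Slit2, the other SLIT ligand (chr5:47983138-48307733, plus strand), lost accessibility at a far upstream peak and gained it at its start. Its 10 peaks comprised 1 at the start and 9 upstream, all 9 of them in sequence that overlaps no annotated gene and 403.9 to 790.3 kb away. The peak 703.1 kb upstream, whose centre is printed above, held 23.6, 20.5, 21.7 and 16.3 CPM in controls and 7.97, 7.74, 9.40 and 5.38 in MafLSEC-KO. All MafLSEC-KO values lay below all control values, a 2.69-fold fall (log2 -1.43 ± 0.19 SE, adjusted p = 5.8e-05). At the start, over the starts of 9 annotated Slit2 transcripts, the peak held 11.1, 7.96, 13.5 and 8.96 CPM in controls and 19.6, 25.7, 26.1 and 13.2 in MafLSEC-KO. MafLSEC-KO replicate 4 lay just under control replicate 3, so the groups overlapped, and the peak was 2.07-fold higher (log2 1.05 ± 0.22 SE, adjusted p = 0.00277).

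The 2 called Slit2 peaks also differed from their gene as a whole, by -1.26 and 1.21 on the log2 scale (adjusted p = 2.27e-05 and 2.33e-05). Of the other upstream peaks, 7 did not pass. They included neighbours of the lost peak at 706.5 and 708.6 kb, with log2 differences of -0.11 and 0.05. The peak at 742.5 kb measured 28.7, 34.6, 24.8 and 21.01 CPM in controls and 15.2, 20.4, 22.1 and 19.5 in MafLSEC-KO (log2 -0.49, adjusted p = 0.0602), and passed as lower when the replicate number was a block (adjusted p = 0.0085).

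Summed over its peaks, Slit2 did not pass. The sum took 697, 930, 725 and 1078 (controls) and 656, 1107, 1041 and 1075 (MafLSEC-KO) reads, or 129, 114, 129 and 82.8 CPM in controls and 96.7, 100.04, 107 and 91.8 in MafLSEC-KO, with overlapping groups (log2 -0.19, 95% interval -0.47 to 0.09, adjusted p = 0.415). The value depended on what was summed. Without control replicate 4 the sum passed as lower (log2 -0.32, adjusted p = 0.0210), and with only peaks within 50 kb of the start, which leaves the start peak, it passed as higher (log2 1.01, adjusted p = 0.0132).

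Ntn4, the netrin of basement membranes (chr10:93640681-93747207, plus strand), had 2 peaks and neither passed. The sum took 161, 219, 142 and 466 (controls) and 180, 319, 250 and 388 (MafLSEC-KO) reads. It was 29.7, 26.8, 25.3 and 35.8 CPM in controls and 26.5, 28.8, 25.8 and 33.1 in MafLSEC-KO (log2 -0.05, 95% interval -0.35 to 0.26, adjusted p = 0.883). Its start peak measured 14.4, 15.3, 8.73 and 16.3 CPM in controls and 15.1, 12.3, 12.6 and 13.1 in MafLSEC-KO, and its peak in intron 2 of 9 measured 14.9, 11.9, 16.1 and 18.7 CPM in controls and 11.5, 17.1, 13.5 and 19.97 in MafLSEC-KO. The groups overlapped at both.

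**Figure D3:**
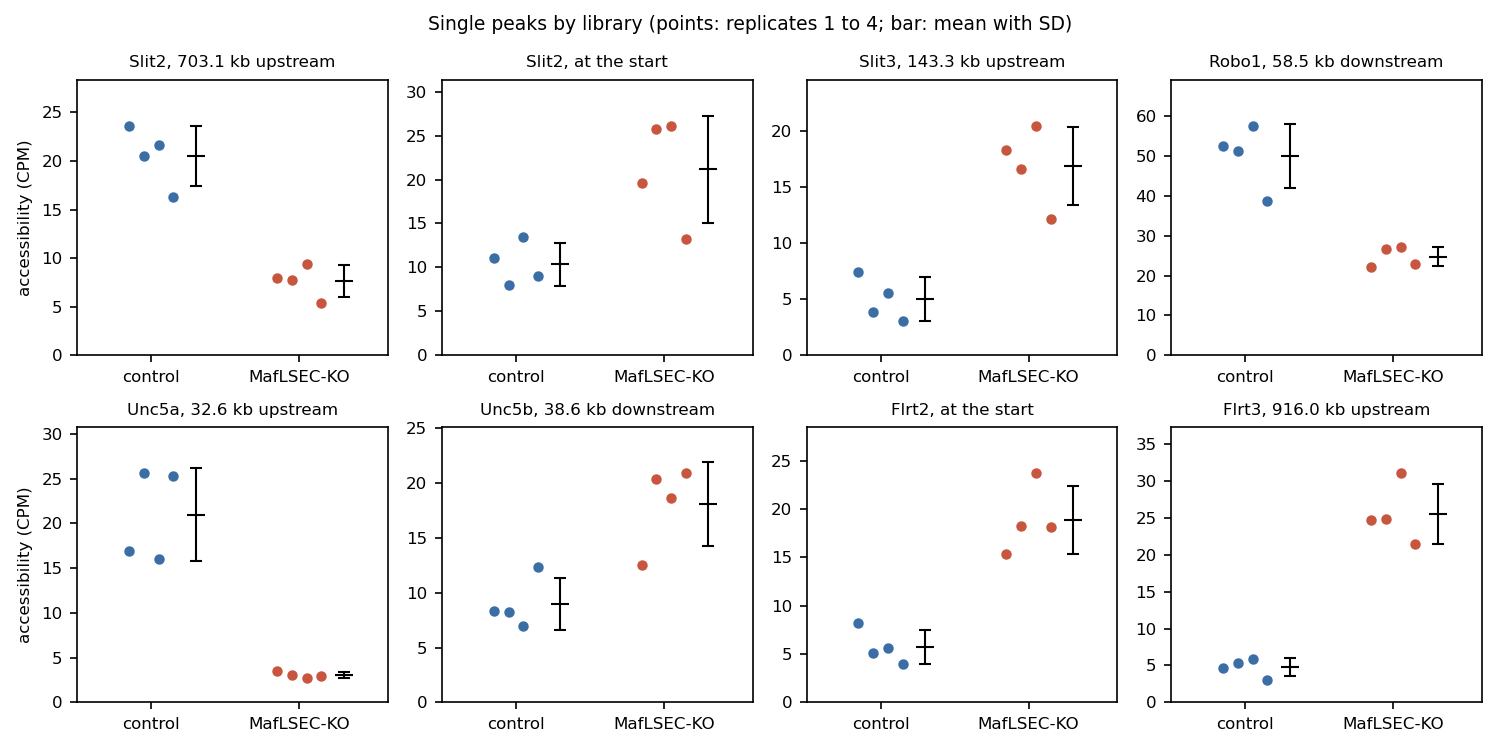
Accessibility in CPM (vertical axes, each starting at 0) of 8 called peaks in the 4 control and 4 MafLSEC-KO libraries, titled by gene and distance from its annotated start. Points are libraries and the bars beside them are mean and SD (n = 4), showing groups that lie apart at every peak except the Slit2 start, where they overlap.

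Of the receptors, Robo1 lost accessibility along its length. Robo1 encodes a receptor of SLIT ligands and spans 737.8 kb by its longest annotated form (chr16:72308306-73046095, plus strand). Its 13 peaks took 1212, 1583, 1265 and 2201 (controls) and 825, 1294, 1276 and 1217 (MafLSEC-KO) reads. The sum was 224, 194, 225 and 169 CPM in control replicates 1 to 4, against 122, 117, 132 and 104 in MafLSEC-KO replicates 1 to 4, a 1.71-fold fall with groups that lay apart (log2 -0.77 ± 0.11 SE, adjusted p = 0.000666). The log2 difference was below 0 at 12 of the 13 peaks, and 6 of them passed as lower.

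The 6 Robo1 peaks that fell ran from the start to 307.0 kb into the gene. At the start used by the table, over the 5′ untranslated region and the adjoining coding letters, accessibility was 43.1, 39.6, 34.4 and 36.6 CPM in controls and 20.1, 27.01, 32.7 and 23.6 in MafLSEC-KO (log2 -0.56 ± 0.15 SE, adjusted p = 0.0142). The peak with the most reads, 58.5 kb into the gene, measured 52.5, 51.4, 57.6 and 38.8 CPM in controls and 22.3, 26.6, 27.2 and 23.04 in MafLSEC-KO and fell 2.01-fold (log2 -1.01 ± 0.14 SE, adjusted p = 7.35e-05). In the same intron, at 33.0 kb, the values were 26.3, 26.4, 35.3 and 22.7 CPM in controls and 11.8, 12.6, 13.2 and 9.64 in MafLSEC-KO (log2 -1.22 ± 0.17 SE, adjusted p = 7.55e-05). The groups lay apart at all of these.

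The steepest fall at Robo1 was at a peak over coding exon 9 of 29. It held 9.81, 8.33, 5.42 and 6.63 CPM in controls and 3.25, 2.03, 1.67 and 1.28 in MafLSEC-KO, which is 3.76-fold lower (log2 -1.91 ± 0.30 SE, adjusted p = 0.000257). It alone of the Robo1 peaks differed from the gene as a whole (by -1.16 on the log2 scale, adjusted p = 0.00665). This is a low peak, with 15 to 22 reads in each MafLSEC-KO library. Without MafLSEC-KO replicate 3 the difference from the whole gene no longer passed (adjusted p = 0.0548). Under the replicate block the peaks at 33.0 and 810.4 kb also differed from the whole gene (adjusted p = 0.0135 and 0.0157). Intronic peaks at 145.3 and 261.5 kb fell by 0.69 and 0.70 on the log2 scale (adjusted p = 0.0473 and 0.0157). The call at 145.3 kb was lost in 11 of 17 alternatives, with an adjusted p of up to 0.147, and it was kept, of the 8 fits with a single library left out, only without control replicate 4. The call at 261.5 kb was lost in 3 of 17 (without control replicate 3, adjusted p = 0.0501, without MafLSEC-KO replicate 4, 0.0510, and without control replicates 1 and 3, 0.142). The start peak lost its call without MafLSEC-KO replicate 1 (adjusted p = 0.0506).

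The 7 other Robo1 peaks had log2 differences from -0.51 to 0.26 and did not pass. The peaks that the table places 57.9 and 13.5 kb upstream lie inside the longer form of Robo1. The peak at 810.4 kb, the only Robo1 peak with a log2 difference above 0, lies nearer to a start of Robo2 than to Robo1. Without it the Robo1 sum fell by 0.79 on the log2 scale (adjusted p = 0.000543).

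**Figure D4:**
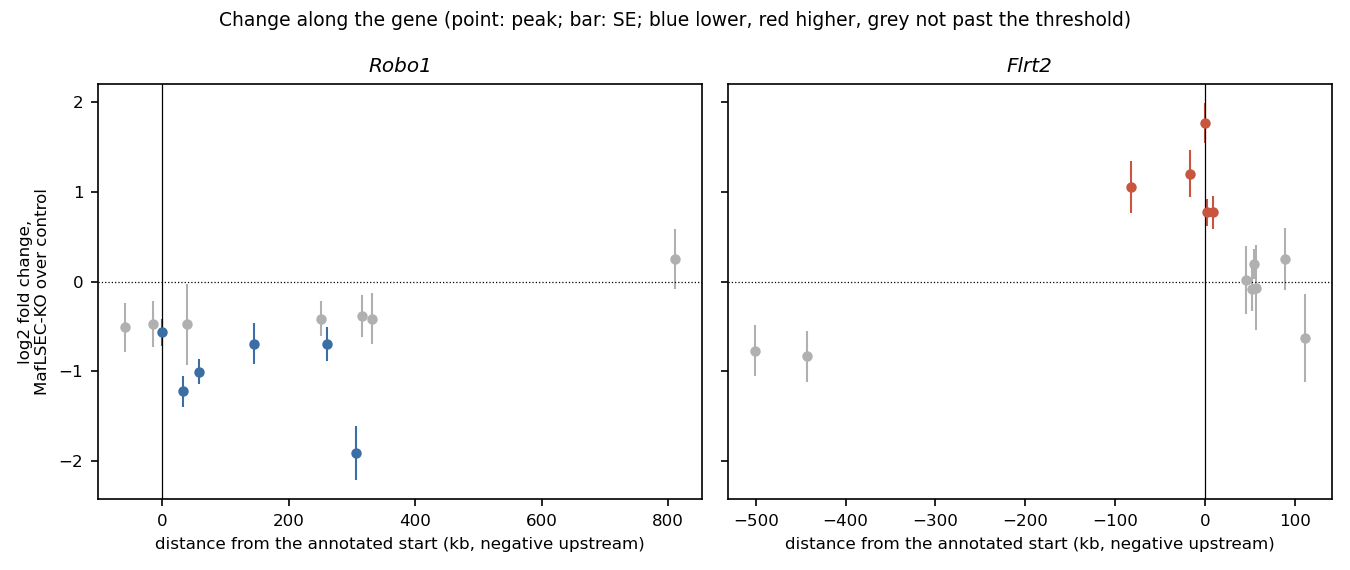
Log2 fold change of MafLSEC-KO over control (vertical axes) against the distance from the annotated start in kb (horizontal axes) for 13 Robo1 peaks and 13 Flrt2 peaks. Points are peaks with their SE, showing that the 6 lower Robo1 peaks (blue) run from the start to 307.0 kb downstream while the 5 higher Flrt2 peaks (red) lie from 82.5 kb upstream to 9.2 kb downstream.

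Robo4, the ROBO receptor of endothelium (chr9:37401897-37415115, plus strand), did not pass at any of its 3 peaks. Its sum took 399, 708, 421 and 1296 (controls) and 600, 963, 793 and 1069 (MafLSEC-KO) reads. It was 73.6, 86.6, 74.9 and 99.6 CPM in controls and 88.4, 87.02, 81.8 and 91.3 in MafLSEC-KO, with overlapping groups (log2 0.05, 95% interval -0.18 to 0.29, adjusted p = 0.827). The promoter peak, 3471 bases wide and the widest of all member peaks, carried 90.8% of that sum. It measured 64.7, 80.2, 66.6 and 89.8 CPM in controls and 80.7, 80.9, 75.7 and 81.7 in MafLSEC-KO (log2 0.08, 95% interval -0.17 to 0.32, adjusted p = 0.723), an interval that does not reach the fall measured at the Robo1 start.

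Unc5a, a netrin receptor gene (chr13:54949411-55006018, plus strand), lost accessibility upstream and inside the gene. Its 5 peaks took 391, 644, 376 and 1304 (controls) and 298, 459, 375 and 524 (MafLSEC-KO) reads. The sum was 72.2, 78.8, 66.9 and 100.2 CPM in control replicates 1 to 4, against 43.9, 41.5, 38.7 and 44.7 in MafLSEC-KO replicates 1 to 4, a 1.89-fold fall with groups that lay apart (log2 -0.92 ± 0.13 SE, adjusted p = 0.000593). The peak 32.6 kb upstream, whose centre holds the joined AP-1 and MAF letters, had the steepest fall of all member peaks. It held 16.9, 25.6, 16.1 and 25.3 CPM in controls and 3.54, 3.04, 2.72 and 2.90 in MafLSEC-KO, 6.97-fold lower (log2 -2.80 ± 0.22 SE, adjusted p = 2.35e-07).

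A neighbouring peak 30.5 kb upstream of Unc5a measured 6.54, 7.59, 8.91 and 10.8 CPM in controls and 3.54, 3.32, 4.07 and 3.41 in MafLSEC-KO (log2 -1.25 ± 0.23 SE, adjusted p = 0.000967). In intron 1 of 14, 30.0 kb past the start, the values were 15.8, 18.04, 12.8 and 19.6 CPM in controls and 10.2, 9.59, 8.67 and 8.53 in MafLSEC-KO (log2 -0.86 ± 0.18 SE, adjusted p = 0.00261). The groups lay apart at both. The promoter peak held 22.2, 18.7, 18.3 and 29.4 CPM in controls and 18.6, 18.5, 16.6 and 19.97 in MafLSEC-KO, overlapped between the groups and did not pass (log2 -0.28, 95% interval -0.63 to 0.08, adjusted p = 0.299). Against Unc5a as a whole, the peak 32.6 kb upstream differed by -1.91 and the promoter by 0.61 on the log2 scale (adjusted p = 1.23e-09 and 0.015). These peaks were not tested against each other. The difference of the promoter was lost when control replicate 2 (adjusted p = 0.127), or replicate 2 (0.0600) or 4 (0.0507) of MafLSEC-KO, was left out.

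Unc5b, the netrin receptor of endothelium (chr10:60762593-60831581, minus strand), moved in both directions around a promoter that did not pass. Its sum over 7 peaks took 489, 673, 538 and 1284 (controls) and 594, 1232, 967 and 1170 (MafLSEC-KO) reads. It was 90.2, 82.4, 95.7 and 98.7 CPM in controls and 87.5, 111, 99.7 and 99.9 in MafLSEC-KO, with overlapping groups (log2 0.12, 95% interval -0.10 to 0.33, adjusted p = 0.526). The promoter peak, with 56.7% of the sum, measured 57.9, 53.2, 57.1 and 58.2 CPM in controls and 46.6, 56.8, 53.5 and 50.2 in MafLSEC-KO (log2 -0.13, adjusted p = 0.491). Without the promoter peak the sum of the others passed as higher (adjusted p = 0.0203).

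Inside the large intron 1 of 15 of Unc5b, the peak 38.6 kb past the start rose from 8.36, 8.21, 6.99 and 12.3 CPM in control replicates 1 to 4 to 12.5, 20.4, 18.6 and 20.9 in MafLSEC-KO replicates 1 to 4 (log2 0.99 ± 0.21 SE, adjusted p = 0.0027). MafLSEC-KO replicate 1 lay just above control replicate 4. At 17.1 kb, over the start of the predicted gene Gm19972, the values were 6.90, 5.47, 8.73 and 6.55 CPM in controls and 8.26, 15.7, 11.2 and 9.56 in MafLSEC-KO, which overlapped (log2 0.71 ± 0.23 SE, adjusted p = 0.0392). That call was lost in 5 of 17 alternatives: with upper-quartile factors, or when control replicate 1, control replicate 2, MafLSEC-KO replicate 2 or MafLSEC-KO replicate 3 was left out, with adjusted p of 0.0565, 0.0657, 0.145, 0.206 and 0.0825. Upstream, 3.5 kb from the start, a peak measured 5.99, 6.97, 9.08 and 8.81 CPM in controls and 3.69, 5.07, 3.87 and 3.16 in MafLSEC-KO (log2 -0.97 ± 0.24 SE, adjusted p = 0.00872). This upstream peak and the one at 38.6 kb differed from Unc5b as a whole by -1.12 and 0.84 on the log2 scale (adjusted p = 0.00174 and 0.00178). With the replicate block the peak at 17.1 kb did so too (by 0.54, adjusted p = 0.0482, against 0.125 without the block).

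A further Unc5b peak at 23.7 kb measured 4.18, 3.61, 5.24 and 3.69 CPM in controls and 7.53, 5.81, 6.16 and 6.997 in MafLSEC-KO. Its groups lay apart, but it did not pass (log2 0.68, adjusted p = 0.0564) except with the replicate block (adjusted p = 0.0297). Unc5c, the remaining UNC5 receptor gene (chr3:141465216-141834924, plus strand), had a single peak 86.7 kb upstream and none at its start. It took 9, 13, 10 and 13 (controls) and 21, 10, 11 and 15 (MafLSEC-KO) reads, or 1.63, 1.62, 1.75 and 0.979 CPM in controls and 3.10, 0.922, 1.15 and 1.28 in MafLSEC-KO. With so few reads the 95% interval of the log2 difference ran from -0.90 to 1.09, and a change within that range was not detectable at this depth.

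Flrt2, an FLRT gene (chr12:95692226-95785215, plus strand), gained accessibility around its start. Its 13 peaks took 830, 916, 739 and 1146 (controls) and 1166, 1937, 1972 and 1919 (MafLSEC-KO) reads. The sum was 153, 112, 131 and 88.1 CPM in control replicates 1 to 4, against 172, 175, 203 and 164 in MafLSEC-KO replicates 1 to 4, 1.48-fold higher with groups that lay apart (log2 0.57 ± 0.14 SE, adjusted p = 0.0231). The sum no longer passed when control replicate 2 was left out (adjusted p = 0.0912), nor when any of MafLSEC-KO replicates 1, 2 and 3 was (0.0568, 0.0663 and 0.0836).

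The promoter peak of Flrt2, whose upstream part is printed above, measured 8.17, 5.10, 5.59 and 3.99 CPM in controls and 15.3, 18.3, 23.7 and 18.2 in MafLSEC-KO, a 3.41-fold rise (log2 1.77 ± 0.22 SE, adjusted p = 2.23e-05). It rose more than the gene as a whole, by 1.18 on the log2 scale (adjusted p = 0.000121). The widest Flrt2 peak, 2.5 kb past the start and over another annotated start, held 63.6, 46.3, 55.7 and 36.3 CPM in controls and 82.6, 89.1, 96.5 and 73.98 in MafLSEC-KO (log2 0.77 ± 0.15 SE, adjusted p = 0.00129). The intronic peak at 9.2 kb measured 11.1, 9.33, 8.38 and 7.38 CPM in controls and 13.4, 14.5, 16.9 and 16.3 in MafLSEC-KO (log2 0.78 ± 0.18 SE, adjusted p = 0.00611). No groups overlapped at these peaks.

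Upstream of Flrt2, the peak at 16.2 kb measured 7.99, 3.73, 4.19 and 3.16 CPM in controls and 11.5, 9.13, 12.7 and 9.22 in MafLSEC-KO (log2 1.21 ± 0.26 SE, adjusted p = 0.00369). At 82.5 kb the values were 2.91, 2.24, 3.32 and 2.26 CPM in controls and 7.23, 3.78, 5.12 and 5.97 in MafLSEC-KO (log2 1.06 ± 0.29 SE, adjusted p = 0.0158), and the peak no longer passed without control replicate 2 (adjusted p = 0.0613), nor without MafLSEC-KO replicate 1 (0.0686). The 6 peaks from 46.0 to 111.0 kb past the start did not pass.

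The far upstream peaks of Flrt2 differed from the gene as a whole. At 443.2 kb, 7.08, 5.97, 7.69 and 3.61 CPM in controls stood against 3.25, 3.69, 3.87 and 2.56 in MafLSEC-KO (log2 -0.83, adjusted p = 0.052). At 500.9 kb, 3.996, 5.72, 4.37 and 3.61 CPM stood against 2.66, 3.04, 2.51 and 2.13, with groups that lay apart (log2 -0.77, adjusted p = 0.0757). Neither passed by itself, and both passed as lower with the replicate block (adjusted p = 0.0143 and 0.0450). The difference from Flrt2 as a whole passed without the block (adjusted p = 0.000674 and 0.00395). At 500.9 kb that difference was lost without control replicate 2 (adjusted p = 0.0585). With the block, the Flrt2 peaks 16.2 kb upstream and 53.0, 54.8 and 111.0 kb past the start also differed from the whole gene, by 0.62, -0.67, -0.41 and -1.21 on the log2 scale (adjusted p = 0.0441, 0.0155, 0.0490 and 0.0331). In the fit of all libraries without the block they did not.

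Flrt3, the other FLRT gene (chr2:140650914-140671469, minus strand), lies inside an intron of Macrod2, and all 10 of its peaks overlap Macrod2. The nearest annotated coding start was that of Macrod2, not of Flrt3, for 7 of the 10, so these peaks are placed with Flrt3 by the table alone. The peak 916.0 kb upstream, whose centre is printed above and which lies 31780 bases from a Macrod2 start, had the steepest rise of all member peaks. It held 4.72, 5.35, 5.94 and 3.09 CPM in control replicates 1 to 4, against 24.6, 24.8, 31.02 and 21.4 in MafLSEC-KO replicates 1 to 4, 5.48-fold higher (log2 2.46 ± 0.21 SE, adjusted p = 5.44e-07). The lowest MafLSEC-KO library lay far above the highest control.

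Other Flrt3 peaks fell. At 523.1 kb upstream the values were 14.4, 20.5, 20.96 and 12.4 CPM in controls and 9.89, 11.2, 9.19 and 8.02 in MafLSEC-KO (log2 -0.82 ± 0.20 SE, adjusted p = 0.00778). At 30.4 kb upstream, where Flrt3 is the nearest coding start, controls held 5.99, 4.73, 6.64 and 3.54 CPM and MafLSEC-KO 1.48, 2.03, 2.72 and 1.88 (log2 -1.32 ± 0.31 SE, adjusted p = 0.00608). These 3 called peaks differed from the gene as a whole by 2.37, -0.91 and -1.41 on the log2 scale (adjusted p = 4.38e-12, 0.00378 and 0.00537). With the replicate block the peak 723.5 kb upstream also did (by -0.68, adjusted p = 0.0314, against 0.162 without the block). The start peak measured 27.97, 26.99, 31.8 and 18.5 CPM in controls and 21.7, 23.9, 24.97 and 17.8 in MafLSEC-KO and did not pass (log2 -0.24, 95% interval -0.60 to 0.12).

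The opposite movements left the Flrt3 sum at 135, 134, 154 and 96.3 CPM in controls and 138, 136, 153 and 114 in MafLSEC-KO, from 732, 1092, 865 and 1253 (controls) and 934, 1501, 1488 and 1340 (MafLSEC-KO) reads (log2 0.06, 95% interval -0.22 to 0.35, adjusted p = 0.827). With the 7 peaks nearest Macrod2 left out, an alternative chosen after seeing the data, the log2 difference was -0.42 (adjusted p = 0.171).

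Across the 10 genes, 8 had a peak over an annotated start of their own, 9 such peaks in all, of which 3 rose (Slit2 and 2 at Flrt2), 1 fell (Robo1) and 5 did not pass (Ntn4, Robo4, Unc5a, Unc5b and Flrt3). The 57 tested peaks away from the starts held 8 that rose and 12 that fell. Over all tested peaks, at starts or not, 8.97% rose and 6.45% fell. Shares over the series were not taken for start peaks and other peaks apart, so the 2 kinds have no matching background here.

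Other genes of these pathways, were taken from a list of 30, of which 28 sums were tested. Of these, 5 rose (Srgap3, Evl, Abl2, Adgrl2 and Nck2, where 5.65% of all tested sums rose), 1 fell (Gpc1, where 4.05% of all sums fell) and 22 did not pass. The median log2 fold change over the 28 was 0.13, against -0.02 over all sums. Srgap3, which encodes a GTPase-activating protein that binds ROBO receptors, averaged 12.0 ± 3.95 CPM in controls and 27.8 ± 4.06 in MafLSEC-KO (SD, n = 4), a rise of 1.24 on the log2 scale (adjusted p = 0.0035). Evl, of the Ena/VASP actin regulators, rose by 0.62 on the log2 scale (adjusted p = 0.0040), Abl2, a cytoplasmic kinase, by 0.43 (adjusted p = 0.0225), and Adgrl2, the latrophilin gene with 51 peaks, by 0.22 (adjusted p = 0.0389). Gpc1, a heparan sulfate proteoglycan gene whose product binds SLIT, averaged 107 ± 5.21 CPM in controls and 54.5 ± 7.37 in MafLSEC-KO (SD, n = 4) and fell by 0.97 on the log2 scale (adjusted p = 0.00012), with groups that lay apart. Robo2, Ntn1, Dcc and Neo1, the genes of a further ROBO receptor, the best known netrin and its attractive receptors, did not pass, with log2 differences of 0.23, 0.28, 0.58 and -0.45.

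The genes whose sums followed Slit3 and Unc5a most closely were named as a description. Over the 8 libraries, among 7200 genes with at least 50 CPM, Slit3 went most closely with Mtx2, Chrm3 and Gm17634 (Pearson r of log2 CPM 0.998, 0.993 and 0.990). Unc5a went most closely with Dnase1l3, Pla2r1 and Tbc1d1 (r = 0.990, 0.990 and 0.988, among 7199 genes). All of these points share the same libraries and the same division into 2 groups.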

How the data were processed

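According to the methods and labels, the authors mapped trimmed reads to mm10 (Bowtie2) and dropped duplicates. Peaks from MACS2 were joined across groups and their reads counted with bedtools 2.30.0, and HOMER 4.11 gave each peak its gene. A Tn5 offset correction is not given in the sources used here. The authors deposited raw counts per peak and library, which were used here, and RPKM per library. RPKM served only to derive library totals (the listed peaks hold 94.7% to 97.7% of the totals that RPKM implies). These totals were the library sizes of an alternative fit. The deposited table also holds the authors' distance to the nearest start, used to name peaks, and their own fold changes and p-values and size-factor normalized values, which were not used. Rows of 68 peaks with no gene name (0.0775% of counts) entered the tests of peaks only.

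Counts were analysed with edgeR 4.0.16 in R 4.3.3 (TMM normalization, filterByExpr, quasi-likelihood test, group as the only term, two-sided, Benjamini-Hochberg adjustment over all 58268 tested peaks or all 17745 tested gene sums, called at 0.05). CPM were scaled by TMM, and sums were normalized by themselves, so that a single-peak gene has slightly different values in both. Libraries of a group differed by more than sampling noise (chi-square per degree of freedom 2.43 to 9.19), so none was counted as a second sequencing of the same library. Whether libraries share animals or a pool cannot be told from this, since separate preparations from the same cells can also differ by more than sampling noise. The labels number the libraries 1 to 4 in both groups. Deviations of same-numbered libraries correlated positively (r = 0.195, 0.104, 0.263 and 0.453, against -0.330 to 0.217 for pairs of different number). Only numbers 3 and 4 lay above every pair of different number. Fits with the replicate number as a block are therefore given where they change a call. Alternatives were DESeq2 1.42.0, limma-voom in limma 3.58.1, RLE and upper-quartile factors, the totals that RPKM implies as library sizes, and no filter. Others were the replicate block, total count as a covariate, each library left out, control replicates 1 and 3 left out, and sums over part of the peaks. Only the edgeR tests of peaks, of gene sums and of a peak against its gene as a whole were tried on simulated counts.

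All 10 genes were named by their sums, and of their peaks every called peak, the promoter peaks and, where there was neither, the peak with the most reads; other peaks named were chosen after their values were seen. Of the pathway list, called genes were named, up to 4 in each direction by smallest p. Nck2, Robo2, Ntn1, Dcc and Neo1 were added after their values were seen. The members, lists and motifs were chosen with earlier results of these data known. Gene positions are from GENCODE for GRCm38. The result of a further marker list is not reported here.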

Additional observations from a re-analysis of the deposited data

Results flagged for a closer look

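In groups of 4 libraries, Dixon's ratio (the gap between an extreme library and its nearest neighbour, over the range of the group) was above its 95% critical value for 3 of 80 groups examined, and chance alone gives about 1 in 20. At the Robo4 promoter peak, MafLSEC-KO replicate 3 had 75.7 CPM where the other MafLSEC-KO libraries had 80.7 to 81.7 (ratio 0.8404). At the Unc5c peak 86.7 kb upstream, control replicate 4 had 0.979 CPM where the other controls had 1.62 to 1.75 (ratio 0.8311), and MafLSEC-KO replicate 1 had 3.10 CPM where the other MafLSEC-KO libraries had 0.922 to 1.28 (ratio 0.8355). The Unc5c peak was among the lowest of the member peaks, and no call rested on these libraries.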

How the results depend on the processing

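Of 721 comparisons of a named sum or peak with an alternative, 689 kept direction and side of the threshold, 27 lost the call, 4 gained one and 1 reversed. The reversal was the Slit2 sum with only peaks within 50 kb of the start (log2 1.01), by construction, since only the start peak is left. Leaving out each library in turn gave 9 to 12 member peaks higher and 11 to 16 lower, and 11 to 16 member peaks that differed from their gene as a whole. It gave 1 to 2 gene sums higher, with 1 (Slit3) when control replicate 2 or any of MafLSEC-KO replicates 1, 2 and 3 was left out. With promoter peaks only, which leaves 4 genes, 1 gene sum was higher (Flrt2) and 0 were lower by edgeR (0 lower at an unadjusted p under 0.05). With the replicate block, 22 in place of 13 member peaks differed from their gene as a whole. In that fit 4 more peaks were called lower or higher (12 higher and 16 lower in all), and no call of a gene sum changed. Beyond the calls named in the report, the Unc5a promoter passed with total count as a covariate (adjusted p = 0.0499), the Unc5b sum passed without its strongest peak (adjusted p = 0.0167) and the Unc5a sum did not pass with the promoter only (adjusted p = 0.315). The causes of these changes were not tested. Peaks under about 20 reads per library, such as that of Unc5c, had intervals too wide to show moderate changes.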

Other observations

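The member peaks were of ordinary width but lower in G and C than the series. Their median width was 569 bases against 573 over all listed peaks, with a range of 160 to 3471, and their median G and C content was 45.34% against 49.11% over all tested peaks. Besides the MAF core and AP-1 letters, ETS letters stood in the central window of 5 of the 66 tested member peaks (11.2% of all tested peaks), GATA letters in 14 (16.1%) and SOX letters in 12 (14.4%). Of the peaks that fell, 3 of 6 at Robo1 and 2 of 3 at Unc5a held a MAF core. The count was 1 of 1 at Slit2, 1 of 2 at Flrt3 and 0 of 1 at Unc5b, where 40.6% of all peaks that fell held it. Of the peaks that rose, 2 of 2 at Slit3 and 2 of 5 at Flrt2 held it. The count was 0 of 2 at Unc5b, 0 of 1 at Slit2 and 0 of 1 at Flrt3, where 20.8% of all peaks that rose held it. These are descriptions with no test.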
